A study of Mus musculus with 6 samples.

Results

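The 36 endothelial genes described here were taken from a bulk mRNA sequencing table of mouse kidney as every row whose symbol was on a list of names. The rule uses no measured value, but the list was drawn up with earlier results of these data known. All 36 were present among the 21367 genes of the table, and all 36 passed the filter on low counts, as did 13036 genes in total. There were 3 Ptpn6+/mev mice and 3 wild-type littermates, each 7 weeks old and of the C57BL/6J background, with 1 library per mouse. Every mouse lost its right kidney, had the left pedicle clamped for 34 min and was killed 24 h later, so each group carried ischemia-reperfusion injury (IRI) and no uninjured kidney was analysed here. The Ptpn6+/mev mice are heterozygous for viable motheaten, a splice-site allele of the gene that encodes the phosphatase SHP-1, and they carry it in every cell. The labels also call this genotype SHP1 knockdown.

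Endothelial cells line the vessels of the kidney, from arteries and the fenestrated glomerular tuft to the peritubular capillaries around the tubules. VEGF made by epithelial cells acts on receptors on the endothelium, angiopoietins act on the receptor TEK, and transcription factors of the ETS and SOX families keep the endothelial program active. After IRI the peritubular capillaries are known for swelling, leak and loss. Several of the listed genes are also used outside the endothelium: Pecam1, Selp, Vwf, Cd34, Fli1 and Ets1 in blood cells, Angpt1 in mural cells and Sema3g and Gja5 in other kidney cells.

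Library totals ran from 10271590 to 12361745 counts. Ptpn6 itself, as the check of the genotype, was at 11.85, 14.66 and 13.61 FPKM (fragments scaled to transcript length and library size) in Ptpn6+/mev kidneys and at 17.47, 10.87 and 15.44 in wild-type kidneys, with values in the order of replicate numbers 1, 2 and 3 throughout. The groups overlapped, with a log2 fold change of -0.19 (SE 0.17, adjusted p = 0.715). Without wild-type replicate 2 they did not overlap, with the Ptpn6+/mev mean at 81.3% of that of the remaining wild-type kidneys and a log2 fold change of -0.34 (SE 0.12, adjusted p = 0.201). A splice-site allele need not lower the RNA level of its gene. The paper reports Sanger sequencing of the mutation and a western blot of SHP-1 as its own checks of these mice. Wild-type replicate 2 stood apart from the other libraries in the endothelial genes, so fitted values are also given without it. Leaving that library out was a choice made on measured values, and it leaves 2 wild-type mice.

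Promoter sequences are shown for 5 of the 19 members with a RefSeq window, as examples picked after their values were seen and not as the ends of any order: Esm1, Tek and Kdr, at 18% to 31.1% of the mean of wild-type replicates 1 and 3 in that library, and Sema3g and Gja5, at 73.0% and 81.6%. Each line gives the 250 bases before the transcript start in RefSeq, assembly GRCm38.p6, read 5′ to 3′ on the strand of the gene, with capitals for matches, on either strand, to the ETS motif CAGGAA or the SOX motifs ACAAAG and ACAAT. The windows lie at chr13:113209409-113209658 on the plus strand for Esm1, chr4:94739039-94739288 on the plus strand for Tek, chr5:75978456-75978705 on the minus strand for Kdr, chr14:31217623-31217872 on the plus strand for Sema3g and chr3:97032152-97032401 on the plus strand for Gja5.
Esm1: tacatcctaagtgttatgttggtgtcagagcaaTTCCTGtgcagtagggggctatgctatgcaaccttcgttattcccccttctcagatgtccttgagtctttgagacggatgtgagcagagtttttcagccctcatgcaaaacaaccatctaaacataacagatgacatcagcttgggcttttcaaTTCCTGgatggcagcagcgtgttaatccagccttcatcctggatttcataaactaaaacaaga
Tek: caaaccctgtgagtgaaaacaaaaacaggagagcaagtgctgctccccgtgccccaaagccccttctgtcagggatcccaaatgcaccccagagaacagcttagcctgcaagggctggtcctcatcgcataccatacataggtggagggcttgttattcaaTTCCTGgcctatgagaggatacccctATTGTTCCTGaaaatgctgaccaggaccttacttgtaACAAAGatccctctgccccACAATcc
Kdr: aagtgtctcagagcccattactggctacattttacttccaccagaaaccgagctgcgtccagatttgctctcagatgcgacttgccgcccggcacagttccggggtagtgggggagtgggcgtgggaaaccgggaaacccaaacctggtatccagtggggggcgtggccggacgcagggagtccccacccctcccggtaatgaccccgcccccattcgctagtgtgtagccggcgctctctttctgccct
Sema3g: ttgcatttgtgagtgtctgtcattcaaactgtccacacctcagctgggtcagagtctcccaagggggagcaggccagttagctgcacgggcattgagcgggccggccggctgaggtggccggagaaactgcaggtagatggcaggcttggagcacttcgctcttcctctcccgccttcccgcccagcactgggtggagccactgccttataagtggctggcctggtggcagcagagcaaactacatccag
Gja5: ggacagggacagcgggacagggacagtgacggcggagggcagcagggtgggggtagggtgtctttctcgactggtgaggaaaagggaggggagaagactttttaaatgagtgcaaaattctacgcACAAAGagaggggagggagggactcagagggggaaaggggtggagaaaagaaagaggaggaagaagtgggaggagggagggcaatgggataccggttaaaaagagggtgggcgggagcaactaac

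The Esm1 window holds 2 matches to CAGGAA. The Tek window holds 2 matches to CAGGAA, 1 to ACAAAG and 2 to ACAAT. The Kdr and Sema3g windows hold none of these letters, and the Gja5 window holds 1 match to ACAAAG. Motif counts were not compared with levels. RefSeq entries were matched for 19 members with 23 windows. CAGGAA, counted on both strands, occurred in 12 of the 23 windows (52.2%), in 11 genes, against 25.7% of all 32851 windows of the same length in the table. The longer ETS motif CCGGAAG, which shares the letters GGAA with CAGGAA, occurred in 0 of 23 windows against 6.91% of all. ACAAAG occurred in 4 windows (17.4%, against 16.5% of all) and ACAAT in 6 (26.1%, against 27.7%). These are matches of letters and not binding sites.

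The members as a whole ran at similar levels in 5 of the 6 libraries. Summed over the 36 genes, the 3 Ptpn6+/mev kidneys had 583.06, 600.24 and 599.25 FPKM, and the 3 wild-type kidneys had 644.68, 291.47 and 615.54 FPKM. The sum was 594 ± 9.65 (SD, n = 3) in Ptpn6+/mev kidneys and 517 ± 196 (SD, n = 3) in wild-type kidneys, and the wild-type spread came from replicate 2, at 46.3% of the mean of the other two. Ptpn6+/mev kidneys were at 94.3% of the mean of wild-type replicates 1 and 3. In bulk tissue fewer endothelial cells and less endothelial RNA per cell cannot be told apart.

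No member passed the test between the genotypes. With all 6 libraries, 0 of 36 members had an adjusted p under 0.05 in edgeR's quasi-likelihood test, against 0.138% of all tested genes, and 0 had an unadjusted p under 0.05, against 12.2%. DESeq2 called 0 members, against 2.97% of all tested genes, and edgeR's exact test called 0, against 2.99%. The smallest adjusted p of a member was 0.481 in the quasi-likelihood test, for Emcn. Fitted log2 fold changes ran from -0.63 for Esm1 to 0.46 for S1pr1 with a median of 0.11, against -0.002 over all tested genes, and 26 of 36 were above 0, against 49.5% of all tested genes.

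The fitted values depended on wild-type replicate 2. With that library left out their median log2 fold change was -0.15, against -0.004 over the 13177 genes tested in that fit, and 26 of 36 were below 0, against 50.8%. In 16 members the sign went from above to below 0, in 0 the other way, and 33 of 36 had a lower value than with all libraries. Quasi-likelihood called 1 member, Esm1, as lower in Ptpn6+/mev kidneys, against 1.8% of all genes called in either direction and 1.09% called lower. DESeq2 without that library also called Esm1 and no other member, against 3.76% of all genes in either direction and 2.12% lower. An unadjusted p under 0.05 was found for 5 members, Esm1, Plvap, Pecam1, Rasip1 and Vwf, all lower in Ptpn6+/mev kidneys, against 17.2% of all genes in either direction and 8.89% lower.

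**Figure D1:**
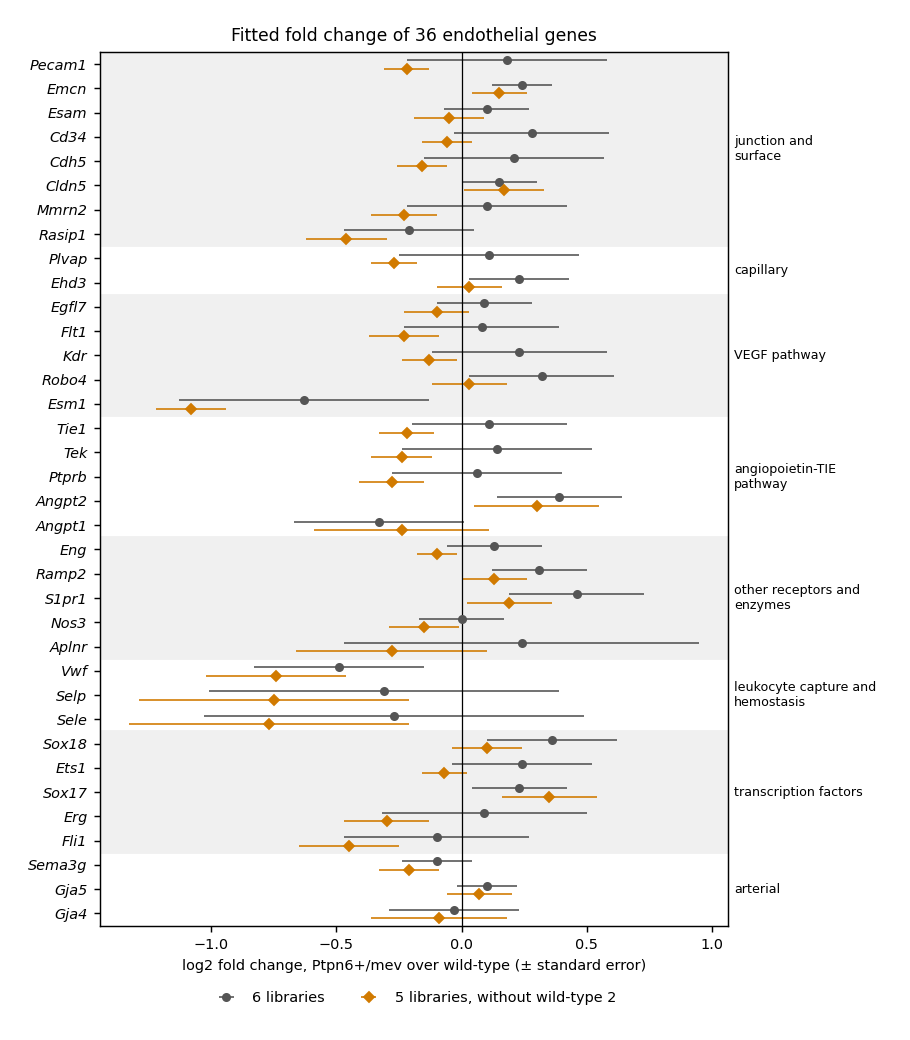
Fitted log2 fold change of each endothelial gene, Ptpn6+/mev over wild-type, from edgeR, with bars of 1 standard error, by role of the gene. Circles use 6 libraries and diamonds 5, without wild-type replicate 2. The diamonds sit to the left of the circles for 33 of 36 genes, and Esm1 lies farthest from 0 in both fits.

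Esm1 encodes endocan, a proteoglycan secreted by activated and sprouting endothelium, and lies at chr13:113209659-113218098 (GRCm38, plus strand). Its level was 4.77, 4.63 and 4.28 FPKM in Ptpn6+/mev kidneys and 9.56, 1.69 and 9.23 in wild-type kidneys. The 3 Ptpn6+/mev kidneys lay close together, under both wild-type replicates 1 and 3 and above wild-type replicate 2, so the groups overlapped. The log2 fold change was -0.63 with all libraries (SE 0.50, adjusted p = 0.686). Its value was -0.323 without wild-type replicate 1, -0.365 without wild-type replicate 3 and -0.388 with a block for replicate number. Without wild-type replicate 2 it was -1.08 (SE 0.14, adjusted p = 0.0116 in edgeR's quasi-likelihood test and 2.5e-05 in DESeq2), and the Ptpn6+/mev mean was 48.5% of that of the remaining wild-type mice. Counts were 97 to 103 in Ptpn6+/mev libraries and 217, 39 and 240 in wild-type libraries. Relative to the summed FPKM of the members, Esm1 made up 0.818%, 0.771% and 0.714% in Ptpn6+/mev kidneys and 1.48%, 0.58% and 1.5% in wild-type kidneys. As a share too, wild-type replicate 2 was the lowest of the 6 libraries.

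The other members of the VEGF pathway list showed no such gap. Kdr, the main signaling receptor for VEGF, was at 10.97, 11.09 and 9.29 FPKM in Ptpn6+/mev kidneys and at 11.53, 3.46 and 10.73 in wild-type kidneys. Flt1, the receptor that also acts as a decoy for VEGF, was at 14.32, 11.16 and 9.87 FPKM against 13.52, 5.26 and 13.40. Only wild-type replicate 2 lay away from the rest, at 31.1% of the mean of wild-type replicates 1 and 3 for Kdr and at 39.1% for Flt1. The log2 fold change was 0.23 (SE 0.35) for Kdr and 0.08 (SE 0.31) for Flt1 with all libraries, and -0.13 (SE 0.11) and -0.23 (SE 0.14) without that one. Robo4, a guidance receptor that stabilizes vessels, was at 8.11, 6.50 and 9.12 FPKM against 8.16, 3.21 and 6.70. Egfl7, a secreted matrix protein of vessels, was at 43.46, 55.19 and 54.95 FPKM against 56.55, 31.27 and 46.75. For both the Ptpn6+/mev kidneys spanned the values of wild-type replicates 1 or 3, and the log2 fold change went from 0.32 (SE 0.29) to 0.03 (SE 0.15) for Robo4 and from 0.09 (SE 0.19) to -0.10 (SE 0.13) for Egfl7 when wild-type replicate 2 was left out.

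In the angiopoietin and TIE pathway the receptors and the ligands differed in wild-type replicate 2. Tek, the angiopoietin receptor, was at 11.08, 11.10 and 8.71 FPKM in Ptpn6+/mev kidneys and at 12.25, 3.41 and 11.77 in wild-type kidneys. Tie1, its co-receptor, was at 14.67, 15.12 and 12.96 FPKM against 17.31, 5.90 and 14.88. Ptprb, the endothelial phosphatase VE-PTP that acts on Tek, was at 7.57, 6.78 and 5.38 FPKM against 8.09, 2.43 and 8.63. For Tek and Ptprb the Ptpn6+/mev kidneys lay under both remaining wild-type kidneys once replicate 2 was left out, with log2 fold changes of -0.24 (SE 0.12, adjusted p = 0.336) and -0.28 (SE 0.13, adjusted p = 0.317). With all libraries these values were 0.14 (SE 0.38) and 0.06 (SE 0.34), and Tie1 went from 0.11 (SE 0.31) to -0.22 (SE 0.11).

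Angpt1, the activating ligand, which mural cells make, was at 0.80, 0.93 and 0.50 FPKM in Ptpn6+/mev kidneys and at 1.09, 0.96 and 0.63 in wild-type kidneys. Angpt2, the context-dependent antagonist stored in endothelial cells, was at 3.46, 4.00 and 6.45 FPKM against 3.92, 2.75 and 3.44. Wild-type replicate 2 was thus at 112% of the mean of wild-type replicates 1 and 3 for Angpt1 and at 74.7% for Angpt2, against 28.4% to 36.7% for the 2 receptors and the phosphatase. Ptpn6+/mev replicate 3 held both the lowest Angpt1 and the highest Angpt2 of the 6 libraries. Between the genotypes the log2 fold change was -0.33 (SE 0.34) for Angpt1 and 0.39 (SE 0.25, adjusted p = 0.593) for Angpt2 with all libraries, and -0.24 (SE 0.35) and 0.30 (SE 0.25) without wild-type replicate 2. Without Ptpn6+/mev replicate 3 the log2 fold change was -0.113 for Angpt1 and 0.0832 for Angpt2. Angpt1 rested on 23 to 50 counts per library.

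**Figure D2:**
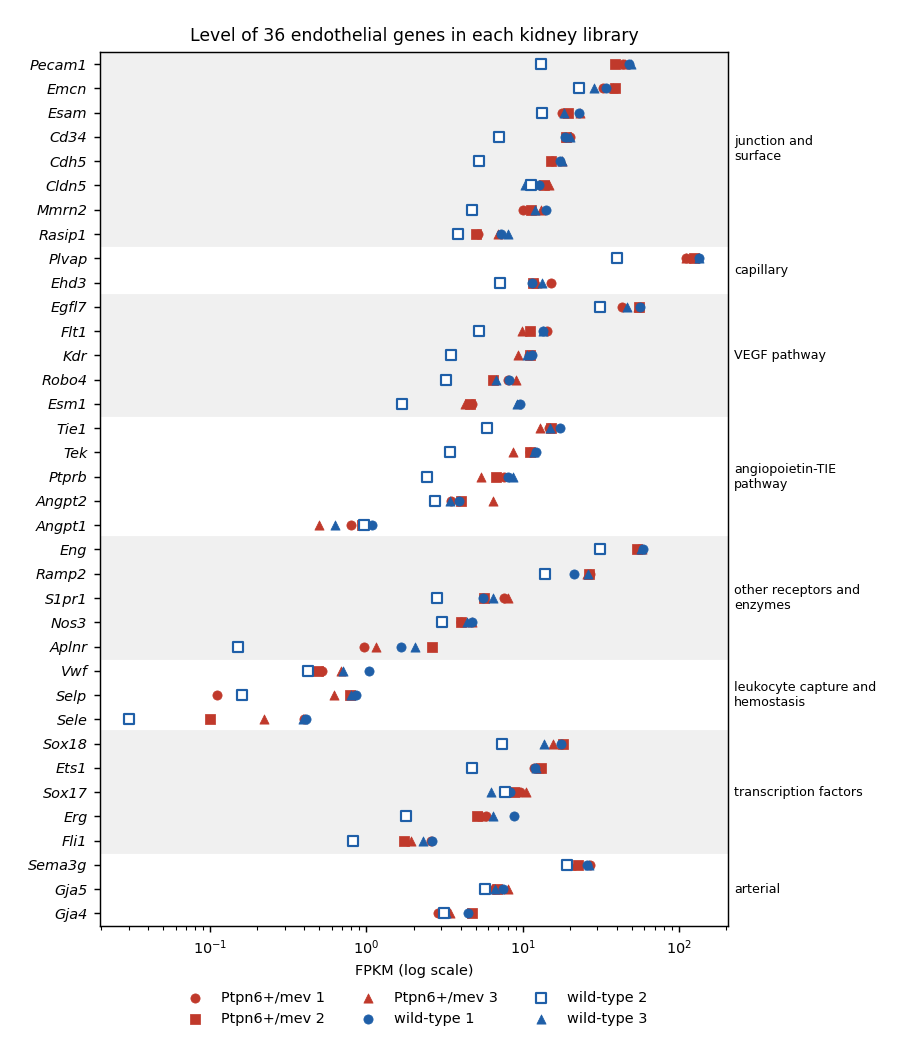
Level of each of the 36 endothelial genes in each library, in FPKM on a log scale, by role. Red symbols are Ptpn6+/mev kidneys, filled blue symbols wild-type replicates 1 and 3, and open squares wild-type replicate 2, which is the lowest library for 31 of 36 genes. Levels span from 0.03 for Sele to 135.47 for Plvap.

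Among genes of cell junctions and of the endothelial surface, Pecam1, an adhesion receptor at cell borders, was at 44.08, 39.28 and 45.33 FPKM in Ptpn6+/mev kidneys and at 48.06, 13.02 and 49.20 in wild-type kidneys. Cdh5, which encodes VE-cadherin of the adherens junction, was at 15.52, 15.12 and 17.94 FPKM against 17.28, 5.25 and 17.86. Wild-type replicate 2 was at 26.8% and 29.9% of the mean of wild-type replicates 1 and 3, and the other 5 kidneys were close together. The log2 fold change of Pecam1 was 0.18 (SE 0.40) with all libraries and -0.22 (SE 0.09, adjusted p = 0.252) without wild-type replicate 2, and that of Cdh5 was 0.21 (SE 0.36) and -0.16 (SE 0.10).

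Emcn, endomucin, a sialoglycoprotein of capillary and venous endothelium, was at 32.78, 38.84 and 37.72 FPKM in Ptpn6+/mev kidneys and at 33.92, 22.82 and 28.59 in wild-type kidneys. Its log2 fold change was 0.24 (SE 0.12, adjusted p = 0.481) with all libraries and 0.15 (SE 0.11) without wild-type replicate 2. Cldn5, a claudin of endothelial tight junctions, was at 11.60, 13.68 and 14.74 FPKM against 12.74, 11.36 and 10.32. Unlike Pecam1 and Cdh5, Cldn5 in wild-type replicate 2 was at 98.5% of the mean of the other wild-type kidneys, and its lowest library was wild-type replicate 3. Its log2 fold change was 0.15 (SE 0.15) with all libraries and 0.17 (SE 0.16) without wild-type replicate 2. For both genes the groups overlapped.

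Rasip1, a Ras-binding protein needed for vessel lumens, was at 5.18, 5.02 and 7.00 FPKM in Ptpn6+/mev kidneys and at 7.27, 3.83 and 8.06 in wild-type kidneys. The Ptpn6+/mev kidneys lay between wild-type replicate 2 and the other wild-type kidneys, and the log2 fold change was -0.21 (SE 0.26) with all libraries and -0.46 (SE 0.16, adjusted p = 0.183) without that one. Exons of Rasip1 overlap Izumo1 and other genes, so reads there could belong to either. Esam, an adhesion molecule of tight junctions, ran from 17.88 to 23.12 FPKM in Ptpn6+/mev kidneys. The surface sialomucin Cd34 ran from 18.85 to 20.07 FPKM, and the matrix glycoprotein Mmrn2 from 10.04 to 13.02. Wild-type replicates 1 and 3 were at 23.00 and 18.51 for Esam, 18.72 and 20.22 for Cd34 and 14.11 and 12.03 for Mmrn2, and replicate 2 was at 13.23, 7.06 and 4.71. Log2 fold changes of these 3 genes were 0.10 to 0.28 with all libraries and -0.23 to -0.05 without wild-type replicate 2.

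The capillary genes held the most abundant member. Plvap, the protein of the diaphragms that span fenestrae and caveolae, was at 111.48, 124.82 and 110.51 FPKM in Ptpn6+/mev kidneys and at 134.92, 40.30 and 135.47 in wild-type kidneys. Wild-type replicates 1 and 3 lay above all 3 Ptpn6+/mev kidneys and wild-type replicate 2 below them. The log2 fold change was 0.11 (SE 0.36, adjusted p = 0.943) with all libraries and -0.27 (SE 0.09, adjusted p = 0.151) without wild-type replicate 2, the smallest adjusted p after Esm1 in that edgeR fit. Ehd3, a membrane-trafficking ATPase enriched in glomerular endothelium, was at 15.09, 11.62 and 12.38 FPKM against 11.44, 7.17 and 13.38, with log2 fold changes of 0.23 (SE 0.20) and 0.03 (SE 0.13). Wild-type replicate 2 was at 29.8% of the mean of the other wild-type kidneys for Plvap and at 57.8% for Ehd3.

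Of the other receptors and enzymes, Eng, a co-receptor of the TGF-beta family, was at 55.57, 54.23 and 57.91 FPKM in Ptpn6+/mev kidneys and at 58.57, 31.41 and 57.11 in wild-type kidneys. S1pr1, the receptor through which sphingosine 1-phosphate seals vessels, was at 7.55, 5.62 and 8.09 FPKM against 5.58, 2.83 and 6.46. Ramp2, the partner that makes the calcitonin receptor-like receptor bind adrenomedullin, was at 26.98, 26.59 and 25.87 FPKM against 21.37, 13.86 and 26.31. In S1pr1 and Ramp2 the Ptpn6+/mev mean was above that of wild-type replicates 1 and 3, at 118% and 111%, though single kidneys of the groups overlapped. S1pr1 had the highest log2 fold change of the members, 0.46 (SE 0.27, adjusted p = 0.572), and 0.19 (SE 0.17) without wild-type replicate 2. Over the same change of libraries Ramp2 went from 0.31 (SE 0.19) to 0.13 (SE 0.13) and Eng from 0.13 (SE 0.19) to -0.10 (SE 0.08). Nos3, the nitric oxide synthase of endothelium, was at 4.04, 4.00 and 4.71 FPKM against 4.74, 3.05 and 4.43. Its adjusted p was 0.998 with all libraries, and its log2 fold change was -0.15 (SE 0.14) without wild-type replicate 2. Aplnr, the apelin receptor, was at 0.97, 2.63 and 1.15 FPKM against 1.67, 0.15 and 2.05, and in wild-type replicate 2 it rested on 6 counts. Both groups of Aplnr were wide, and its log2 fold change turned from 0.24 (SE 0.71) to -0.28 (SE 0.38) without that library.

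Genes of leukocyte capture and hemostasis were the least abundant. Sele, E-selectin, which endothelium makes on activation, was at 0.40, 0.10 and 0.22 FPKM in Ptpn6+/mev kidneys and at 0.41, 0.03 and 0.39 in wild-type kidneys, from 1 to 14 counts per library. Selp, P-selectin, which endothelial cells and platelets store, was at 0.11, 0.78 and 0.62 FPKM against 0.86, 0.16 and 0.80. Vwf, von Willebrand factor, was at 0.52, 0.49 and 0.69 FPKM against 1.04, 0.42 and 0.71. Wild-type replicates 1 and 3 were at or above the Ptpn6+/mev kidneys in all 3 genes, but for Sele, where Ptpn6+/mev replicate 1 lay above wild-type replicate 3. Log2 fold changes were -0.27 (SE 0.76), -0.31 (SE 0.70) and -0.49 (SE 0.34) with all libraries, and -0.77 (SE 0.56), -0.75 (SE 0.54) and -0.74 (SE 0.28, adjusted p = 0.213) without wild-type replicate 2. Depth limits Sele, and Selp with 4 to 34 counts per library, more than Vwf with 36 to 96.

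Among the transcription factors, Sox17 and Sox18 are SOX family members of arterial and lymphatic development, and Erg, Fli1 and Ets1 belong to the ETS family. Sox17 was at 9.57, 8.81 and 10.45 FPKM in Ptpn6+/mev kidneys and at 8.34, 7.75 and 6.30 in wild-type kidneys, and it was the 1 member of 36 whose groups did not overlap in FPKM, against 20.4% of all tested genes in either direction and 14.0% higher in Ptpn6+/mev kidneys. On counts scaled by edgeR's TMM factors the groups of Sox17 did overlap, since wild-type replicate 2 was at 11.8 CPM (counts scaled to library size) and the Ptpn6+/mev kidneys at 11.5, 11 and 12.7. On that scale 0 of 36 members had groups apart, against 19.4% of all tested genes. The log2 fold change of Sox17 was 0.23 (SE 0.19, adjusted p = 0.714) with all libraries and 0.35 (SE 0.19, adjusted p = 0.379) without wild-type replicate 2. Without wild-type replicate 3 it was 0.06 (SE 0.18).

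Erg was at 5.84, 5.07 and 5.50 FPKM in Ptpn6+/mev kidneys and at 8.82, 1.78 and 6.50 in wild-type kidneys. Ets1 was at 11.81, 13.09 and 12.63 FPKM against 12.04, 4.75 and 12.19. Fli1 was at 2.58, 1.74 and 1.92 FPKM against 2.62, 0.82 and 2.31. All 3 ETS genes were thus lowest in wild-type replicate 2, at 23.2%, 39.2% and 33.3% of the mean of the other wild-type kidneys, whereas Sox17 was at 106%. Sox18 was at 17.97, 18.17 and 15.55 FPKM against 17.57, 7.4 and 13.69, with wild-type replicate 2 at 47.3% and the other kidneys overlapping. Fli1 and Ets1 are neighbours, at chr9:32422204-32542861 and chr9:32636221-32757820. Log2 fold changes with all libraries were 0.09 (SE 0.41) for Erg, 0.24 (SE 0.28) for Ets1, -0.10 (SE 0.37) for Fli1 and 0.36 (SE 0.26) for Sox18. Without wild-type replicate 2 they were -0.30 (SE 0.17), -0.07 (SE 0.09), -0.45 (SE 0.20) and 0.10 (SE 0.14).

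The arterial genes were closer to the other kidneys in wild-type replicate 2. Sema3g, a semaphorin of arterial endothelium, was at 26.81, 22.70 and 20.27 FPKM in Ptpn6+/mev kidneys and at 25.70, 19.08 and 26.60 in wild-type kidneys. Gja5, a connexin of arteries, was at 6.53, 6.86 and 8.11 FPKM against 7.47, 5.77 and 6.68, and Gja4, another arterial connexin, was at 2.88, 4.74 and 3.41 against 4.44, 3.12 and 3.21. In each the groups overlapped, and wild-type replicate 2 was at 73.0%, 81.6% and 81.6% of the mean of the other wild-type kidneys. Log2 fold changes were -0.10 (SE 0.14), 0.10 (SE 0.12) and -0.03 (SE 0.26) with all libraries, and without wild-type replicate 2 they were -0.21 (SE 0.12), 0.07 (SE 0.13) and -0.09 (SE 0.27).

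Wild-type replicate 2 was the lowest library for 31 of 36 members in FPKM (86.1%), against 42.7% of all tested genes, and for 29 members on TMM-scaled counts, against 30.2%. The exceptions in FPKM were Cldn5, Sox17, Gja4, Angpt1 and Selp. For 22 members (61.1%) it was under 0.5 of the mean of wild-type replicates 1 and 3, against 7.87% of all tested genes. The median log2 ratio to that mean was -1.15 over the members and -0.14 over all tested genes in FPKM, and -1.06 and 0.0 on TMM-scaled counts. These are descriptions, since the library was singled out for low endothelial genes.

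The deficit of wild-type replicate 2 was uneven across the roles. Summed FPKM, as a percent of the mean of wild-type replicates 1 and 3, was 29.0% for leukocyte capture and hemostasis, 32.2% for the capillary genes and 37.7% for the angiopoietin and TIE pathway. It was 47.8% for junction and surface genes, 48.2% for the VEGF pathway, 49.8% for the transcription factors and 54.5% for the other receptors and enzymes. The arterial genes stood at 75.5%. Among single genes it ran from 7.5% for Sele and 8.06% for Aplnr to 106% for Sox17 and 112% for Angpt1. Abundant genes weigh most in a sum, and of the capillary genes Plvap was at 29.8% and Ehd3 at 57.8%. The median log2 ratio per gene was -1.27 for the capillary genes. It was lower for the angiopoietin and TIE pathway (-1.45), the VEGF pathway (-1.36) and the transcription factors (-1.35). By that median too, leukocyte capture and hemostasis was lowest (-2.38) and the arterial genes highest (-0.29). The median of leukocyte capture and hemostasis is the ratio of Selp, which had 6 counts in wild-type replicate 2. Sele had 1 count there and Vwf 41. Vwf, the best counted of these genes, had a log2 ratio of -1.06, so the lowest place of this role rests on Sele and Selp. In the order of sums some neighbours lay close, such as 47.8% and 48.2%, and others did not, such as 54.5% and 75.5%. With 1 library there is no error for any of these values.

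**Figure D3:**
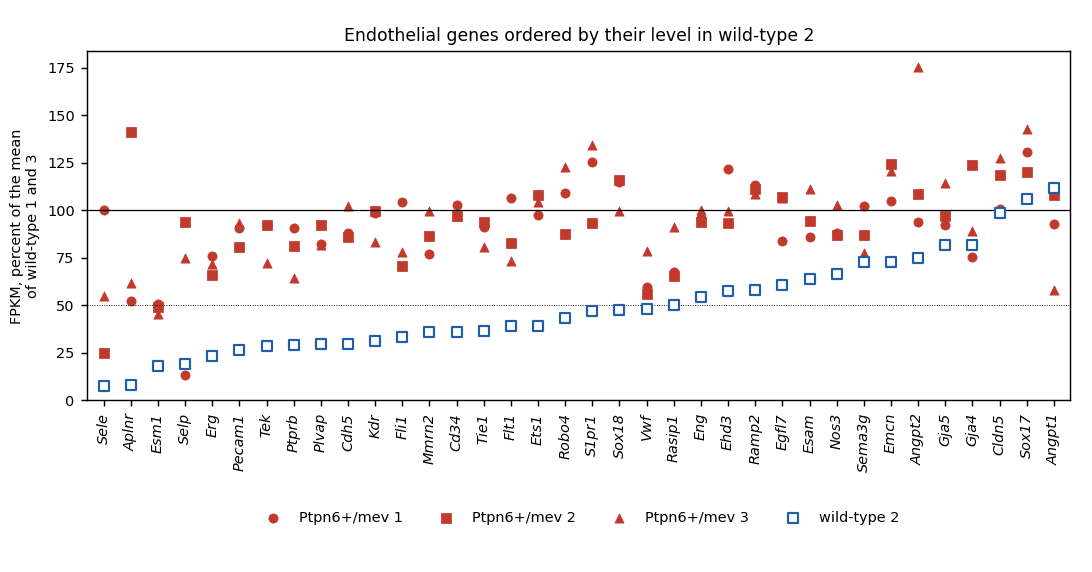
FPKM of each endothelial gene as a percent of the mean of wild-type replicates 1 and 3 (line at 100%), for wild-type replicate 2 (open squares) and the 3 Ptpn6+/mev kidneys (red), with genes ordered by the former. Wild-type replicate 2 runs from 7.5% for Sele to 112% for Angpt1, while most Ptpn6+/mev values lie around the line, and the 3 Ptpn6+/mev values of Esm1 lie near 48.5%.

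With wild-type replicate 2 left out, 10 of 36 members had groups that did not overlap in FPKM, against 35.4% of all tested genes. They were Pecam1, Rasip1, Plvap, Esm1, Tek, Ptprb, Selp, Vwf, Erg and Sox17, of which 9 were lower in Ptpn6+/mev kidneys, against 14.3% of all tested genes apart in that direction. On TMM-scaled counts 10 members were apart too, against 36.3%, with Eng and Fli1 in place of Ptprb and Erg. The spread within a group was a little above that of other genes once this library was out. The median SD of log2 CPM over the members was 0.18 in Ptpn6+/mev kidneys and 0.14 in wild-type replicates 1 and 3, against 0.14 and 0.10 over all tested genes, and with wild-type replicate 2 it was 0.62 in wild-type kidneys, against 0.19.

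Further genes of vascular pathways, 68 in all with 67 tested, were read from the same fit. With all libraries 0 were called by quasi-likelihood, against 0.138% of all tested genes, and 8 had an unadjusted p under 0.05, against 12.2%. Without wild-type replicate 2, 19 had an unadjusted p under 0.05, against 17.2% of all genes. In that fit 1 was called, against 1.8% of all genes: Plat, which is tissue plasminogen activator. Plat was at 162.61, 157.73 and 159.37 FPKM in Ptpn6+/mev kidneys and at 80.88, 85.93 and 113.63 in wild-type kidneys, with no overlap. Its log2 fold change was 0.71 (SE 0.12, adjusted p = 0.0786) with all libraries and 0.68 without wild-type replicate 2 (adjusted p = 0.0335). Plat was also called by quasi-likelihood without wild-type replicate 3 (adjusted p = 0.0286). With all libraries it was called by DESeq2 (adjusted p = 1.74e-04) and by edgeR's exact test (adjusted p = 5.31e-04). It was not called by quasi-likelihood when any other library was left out (adjusted p = 0.18 to 0.383), without the filter (0.0554) or with the replicate block (0.187). It was not called by limma either (0.0658). Tubular cells also make Plat, and its level in wild-type replicate 2 was 88.4% of that in the other wild-type kidneys.

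DESeq2 called 3 of these genes with all libraries, against 2.97% of all tested genes, and 5 without wild-type replicate 2, against 3.76%. Beside Plat these were Vegfa and Vcam1 in both fits and Cxcl12 and Thbd in the second, all 4 named after their values were seen. Vegfa, the ligand of Kdr and Flt1, was at 40.02, 37.48 and 37.12 FPKM in Ptpn6+/mev kidneys and at 49.08, 44.90 and 46.60 in wild-type kidneys. The groups did not overlap, and the log2 fold change was -0.34 (SE 0.08, adjusted p = 0.16 in edgeR's quasi-likelihood test and 0.0405 in DESeq2). It was -0.34 without wild-type replicate 2 too (SE 0.09, adjusted p = 0.0834 in edgeR and 0.0473 in DESeq2). Vcam1, an adhesion molecule for leukocytes that tubular cells also make, was at 13.31, 24.00 and 22.77 FPKM against 11.69, 5.91 and 11.44, with a log2 fold change of 1.05 (SE 0.28, adjusted p = 0.188 in edgeR and 0.0125 in DESeq2), and of 0.83 without wild-type replicate 2 (SE 0.23, adjusted p = 0.108 and 0.0133). With all libraries edgeR's exact test gave an adjusted p of 0.018 for Vcam1 and 0.116 for Vegfa. Vegfa in wild-type replicate 2 was at 93.9% of the mean of the other wild-type kidneys, unlike its receptors.

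Cxcl12, a chemokine of stromal and vascular cells, was at 19.71, 26.32 and 23.96 FPKM in Ptpn6+/mev kidneys and at 43.45, 14.94 and 31.46 in wild-type kidneys. Thbd, thrombomodulin, the thrombin receptor of endothelium, was at 23.32, 23.31 and 25.42 FPKM against 29.64, 11.85 and 30.22. In both, wild-type replicate 2 lay below and the other wild-type kidneys above all 3 Ptpn6+/mev kidneys. The log2 fold change of Cxcl12 was -0.43 (SE 0.30, adjusted p = 0.642 in edgeR) with all libraries and -0.73 (SE 0.16, adjusted p = 0.0545 in edgeR and 0.00308 in DESeq2) without wild-type replicate 2. That of Thbd was -0.05 (SE 0.28, adjusted p = 0.972) and -0.36 (SE 0.08, adjusted p = 0.0695 in edgeR and 0.0321 in DESeq2).

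**Figure D4:**
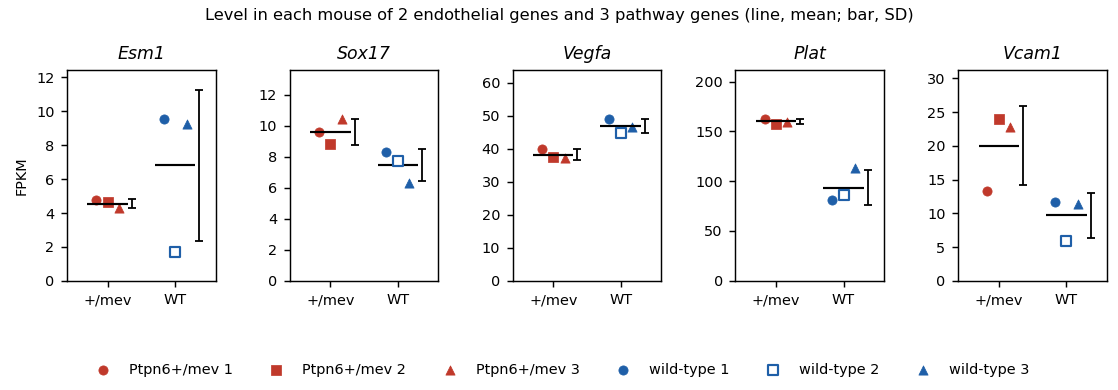
FPKM in each mouse of Esm1 and Sox17 and of the pathway genes Vegfa, Plat and Vcam1, with the mean (line) and SD (bar) of 3 mice a group on axes that start at 0. Esm1 in Ptpn6+/mev kidneys lies between wild-type replicate 2 at 1.69 and the other wild-type kidneys at 9.23 and 9.56, while in the other panels the groups do not overlap.

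The most abundant other ligands, receptors and transcription factors did not pass the test. Vegfb among ligands, Ackr3 and Nrp1 among receptors, and Epas1 and Hes1 among transcription factors had log2 fold changes from -0.34 for Nrp1 to 0.15 for Vegfb. A list of 19 other endothelial-enriched genes followed the members: 18 were lowest in wild-type replicate 2, against 42.7% of all tested genes. Their sum there was 62.6% of that in the other wild-type kidneys, and their median log2 ratio was -1.08, against -1.15 over the members. In either edgeR fit 0 were called, against 0.138% of all genes with all libraries and 1.8% without wild-type replicate 2. The most abundant genes of this list, Ly6c1 and Tm4sf1, were at 82.5% and 50.8% in wild-type replicate 2 by FPKM. On TMM-scaled counts Tm4sf1 was less low, with a log2 ratio of -0.61, against -0.98 in FPKM.

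Summed markers of several other cell types were also low in wild-type replicate 2. Markers of pericytes, mesangial cells and smooth muscle summed to 79.66 FPKM there and to 195.28 to 232.17 in the other 5 kidneys, and 6 of 9 were lowest there. In that list Acta2, smooth muscle actin, was at 45.01 FPKM against 130.03 to 176.78, and Pdgfrb, the receptor of mural cells, at 7.66 against 16.56 to 26.52, while Rgs5 and Myh11 were at 110% and 115% of the other wild-type kidneys. Lymphatic endothelial markers, led by Ccl21a and Flt4, summed to 7.13 FPKM against 15.90 to 24.17, and 2 of 5 were lowest there. Ccl21a made up most of that sum, and Prox1, the transcription factor that defines lymphatic endothelium, was highest there, at 0.69 FPKM against 0.40 to 0.66. Leukocyte markers, led by C1qa and S100a9, summed to 64.43 FPKM against 81.74 to 131.95, with 7 of 10 lowest. Podocyte markers, led by Podxl, summed to 96.73 FPKM against 129.76 to 163.75, with 6 of 7 lowest.

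Blood markers were low there too in sum. Platelet markers, led by Pf4 and Ppbp, summed to 5.48 FPKM in wild-type replicate 2 and to 10.35 to 18.14 in the others, with 3 of 8 lowest there, Gp1ba highest there at 0.33 FPKM against 0.04 to 0.18, and Treml1 listed at 0 in all 6 libraries. Red cell markers, led by Hbb-bs and Hba-a2, summed to 502.30 FPKM there, the lowest of the 6 libraries, and they also set Ptpn6+/mev replicate 1 (1633.37) and wild-type replicate 1 (1298.40) apart from the other libraries at 589.35 to 644.79. The endothelial sums of those 2 libraries were 583.06 and 644.68 FPKM, against 599.25 to 615.54 in the latter 3. Abundant genes weigh most in all these sums. Per gene, the median log2 ratio of wild-type replicate 2 to wild-type replicates 1 and 3 was -1.15 for the members. It was -1.29 for lymphatic, -0.95 for red cell and -0.93 for leukocyte markers. Nearer to 0 were pericyte, mesangial and smooth muscle (-0.69), podocyte (-0.43) and platelet markers (-0.29).

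Tubular markers in wild-type replicate 2 were nearer to the other wild-type kidneys. Markers of distal nephron and collecting duct summed there to 114% of the other wild-type kidneys, with 0 of 8 lowest and Aqp2, the water channel of the collecting duct, at 430.77 FPKM against 121.61 to 227.54, and Umod at 100%. Tubular injury markers, led by Clu and Lcn2, summed to 108% and proximal tubule markers, led by Slc34a1 and Miox, to 80.4%. Of 61 tested markers of other cells, 1 was called between the genotypes with all libraries, against 0.138% of all genes. It was Slc22a8, an organic anion transporter of the proximal tubule, lower in Ptpn6+/mev kidneys by edgeR (log2 fold change -0.91, SE 0.12, adjusted p = 0.0443), and this call was lost when any library other than wild-type replicate 2 was left out (adjusted p = 0.0543 to 0.343), with limma (0.0555) and with the replicate block (0.168). With wild-type replicate 2 left out, 7 of 61 were called, against 1.8% of all genes, 5 of them among the 8 proximal tubule markers. Slc22a8 was joined by Slc22a6, Lrp2, Cubn and Miox, all lower, and by the injury keratins Krt20 and Krt18, both higher. The part of these other cells in the endothelial values was not tested.

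**Figure D5:**
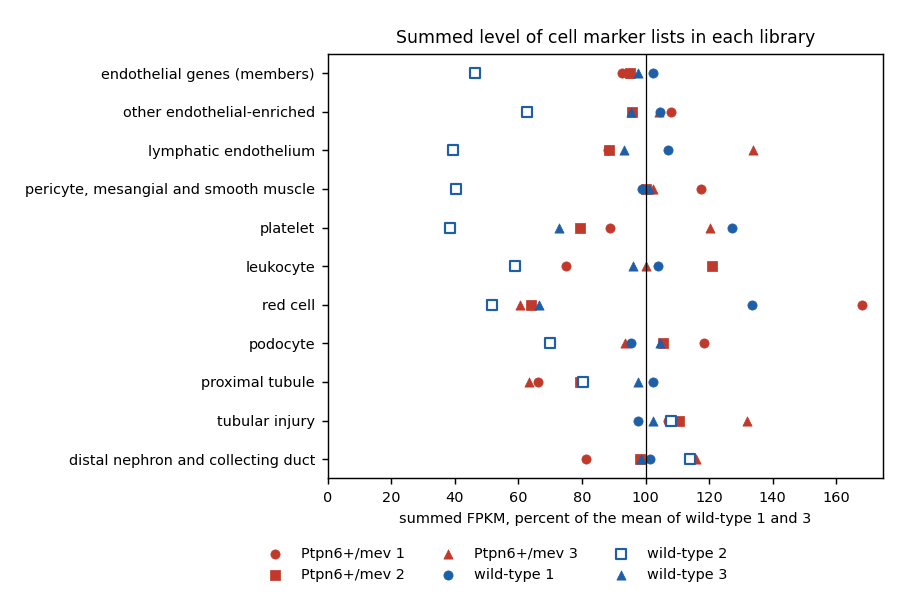
Summed FPKM of each marker list in each library, as a percent of the mean of wild-type replicates 1 and 3 (line at 100%). The open squares of wild-type replicate 2 lie between 38.5% and 62.6% for endothelial, lymphatic, mural, platelet, leukocyte and red cell lists. They lie at 69.8% for podocytes, and at 80.4% to 114% for the tubular lists. Abundant genes weigh most in a sum. The median log2 ratio per gene was -1.29 for lymphatic, -0.69 for mural and -0.29 for platelet lists, against -1.15 for the members.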

How the data were processed

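Poly-A mRNA of 6 mouse kidneys was sequenced as read pairs. The authors aligned reads to GRCm38.p5 with TopHat2 and evaluated expression with Cufflinks. The submitters' processing notes also name Bowtie2 and RSEM without a role. Their deposited values are estimated counts and FPKM for each gene and library. Which tool made the counts, and whether strand was used, is not given in the sources used here. Estimated counts were fractional for 1744 of 21367 genes and for 0 members, and were rounded.

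The comparison used the quasi-likelihood F-test of edgeR 4.0.16 under R 4.3.3 (TMM factors, filterByExpr, Benjamini-Hochberg adjustment over all 13036 tested genes, threshold 0.05). Fold changes come from this fit, and levels per length are the deposited FPKM. Standard errors were derived from the fit, as the absolute log2 fold change over the square root of its F statistic. Replicates are separate mice. Depth was 10271590 to 12361745 counts per library, and 8755 (wild-type replicate 2) to 21928 counts fell on the members, so genes with few counts, such as Sele, are the least precise.

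Alternatives were DESeq2 1.42.0, edgeR's exact test, limma 3.58.1 on log2(FPKM + 1), other size factors, no filter, a replicate block and each library left out. The tests were run on simulated counts first. Members (by name), gene lists and tests were chosen with earlier results of these data known. Every member is named, and of other lists the genes called by edgeR with or without wild-type replicate 2 and the 2 most abundant, apart from some that are not reported here. Positions are from GENCODE M21 (GRCm38), promoter sequences from RefSeq (GRCm38.p6), and tables and figures from Python 3.11.15. Exons of 10 members, Eng, Egfl7, Ramp2, Cd34, Sox17, Gja5, Rasip1, Nos3, Angpt1 and Selp, overlap another gene on the same or the other strand, so reads there could belong to either.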

Additional observations from a re-analysis of the deposited data

How the results depend on the processing

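The count of 0 called members held under DESeq2, edgeR's exact test, limma, other size factors, no filter, the replicate block and every library left out but wild-type replicate 2, so it ran from 0 to 1 with 1 library left out and was 1 with DESeq2 without wild-type replicate 2. All calls rest on 3 mice a group, or 2 where one is left out, and the lone difference of Esm1 has 2 wild-type mice. Over all genes 18 calls became 387 with DESeq2, 390 with the exact test, 52 without the filter, 1 with the replicate block, 1 to 237 with 1 library left out and 495 with DESeq2 without wild-type replicate 2. The cause was not tested. Calls among pathway genes went from 0 to 3 with DESeq2, 2 with the exact test, 0 to 1 with 1 library left out and 5 with DESeq2 without wild-type replicate 2. Calls among markers of other cells went from 1 to 5 with DESeq2, 4 with the exact test, 0 with limma, 2 without the filter, 0 with the replicate block, 0 to 7 with 1 library left out and 10 with DESeq2 without wild-type replicate 2. The median log2 fold change of the members ran from -0.15 without wild-type replicate 2 to 0.28 without wild-type replicate 1, and was 0.22 without wild-type replicate 3, 0.24 with limma and 0.21 with the block.

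The labels give both groups replicate numbers 1 to 3, but same-numbered mice did not deviate together (correlations of -0.144, -0.184 and -0.13), so the numbers were not used as pairs. With the replicate block the log2 fold change changed sign for Fli1 (0.00597) and Nos3 (0.011). With limma it did so for Nos3 (0.063), Fli1 (0.13) and Gja4 (0.019), and with upper quartile normalization for Nos3 (0.0057).

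With 1 library left out in turn, log2 fold changes crossed 0 for 21 members: -0.22 to 0.44 for Pecam1, -0.16 to 0.45 for Cdh5, -0.13 to 0.49 for Kdr, -0.23 to 0.27 for Flt1, -0.24 to 0.40 for Tek, -0.22 to 0.38 for Tie1, -0.27 to 0.33 for Plvap, -0.10 to 0.26 for Eng, -0.054 to 0.25 for Esam, -0.10 to 0.28 for Egfl7, -0.15 to 0.10 for Nos3, -0.30 to 0.51 for Erg, -0.28 to 0.30 for Ptprb, -0.83 to 0.10 for Sele, -0.77 to 0.15 for Selp, -0.23 to 0.38 for Mmrn2, -0.057 to 0.51 for Cd34, -0.066 to 0.43 for Ets1, -0.45 to 0.17 for Fli1, -0.26 to 0.13 for Gja4 and -0.33 to 0.74 for Aplnr. With DESeq2 without wild-type replicate 2 they were below 0, against above 0 with all libraries, for 16 members: -0.21 for Pecam1, -0.15 for Cdh5, -0.13 for Kdr, -0.23 for Flt1, -0.24 for Tek, -0.21 for Tie1, -0.26 for Plvap, -0.091 for Eng, -0.0495 for Esam, -0.10 for Egfl7, -0.30 for Erg, -0.27 for Ptprb, -0.23 for Mmrn2, -0.052 for Cd34, -0.061 for Ets1 and -0.27 for Aplnr.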
